A study of Mus musculus with 27 samples.

Results

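The contacts described here are those that the chromosome segment carrying Lrp8 and Magoh makes with itself in mouse testis, on the side of a deleted domain boundary that faces these genes. They were chosen by position alone, as all pairs of different 10 kb bins among the 22 bins of chromosome 4 right of the deleted span (mm10). Bin 1, next to the span, makes 21 of these pairs and the other bins make 210 among themselves, out of 20899 pairs in the captured cores of chromosomes 4 and 2. The span itself is taken as the 3 bins that are deleted or partly deleted, and bin 22 ends 220 kb from it. All pairs held contacts in all 6 libraries, from 26 to 3264 per pair and library.

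Capture Hi-C was made from testis of 3 wild-type samples and 3 samples homozygous for the deletion B396.BOS, made with CRISPR-Cas9. The method joins pieces of DNA that are neighbours in the folded chromosome, then pulls out the joined pieces of chosen regions with probes and counts them by sequencing. The series has 27 samples in all; its 9 RNA libraries enter here only through 1 deposited table, and its 12 ChIP libraries were not used here. The labels number the samples within a genotype without saying that they are separate animals, so the p-values below measure the spread between these samples, which may be technical; age and strain are not given in the sources used here.

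Topologically associating domains are stretches of chromosome whose parts meet each other more often than they meet their neighbours. Their borders are often bound by CTCF, a zinc finger protein that stops the ring-shaped cohesin complex as it extrudes loops of DNA. A bin that cohesin keeps in contact with many positions of a domain appears in a contact map as a stripe, and testis is a mixed tissue in which germ cells at many stages are measured together with somatic cells.

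The RefSeq annotation of the same build placed 12 genes on the 22 bins. Bin 1 overlapped only the 3′ end of the long non-coding RNA gene 1700047F07Rik (chr4:107689600-107744284). This gene starts left of the deleted span and runs across it. Lrp8, which encodes a receptor for reelin and other ligands, covered bins 7 to 14 (chr4:107802200-107876840, plus strand). Magoh, which encodes a core subunit of the exon junction complex, lay on bins 14 and 15. Czib, which encodes a zinc-binding protein, lay on bins 15 and 16, and Cpt2, which encodes a mitochondrial enzyme of fatty acid transport, lay on bins 17 to 19 on the minus strand. Gm12907, 4933424M12Rik, Lrp8os3, Lrp8os2, Gm40221 and 4930407G08Rik are long non-coding RNA genes and Gm12906 is a pseudogene.

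The 250 bases before 3 gene starts are shown because the wild-type map described next turns on their bins: the first Lrp8 start lies in a bin with which bin 1 was in high contact, and the Magoh and first Czib starts lie 245 and 174 bases before the junctions of lowest insulation score. They are printed 5′ to 3′ on the plus strand, from RefSeq promoters of GRCm38.p6, with CpG dinucleotides in capitals.
Lrp8, chr4:107802635-107802884: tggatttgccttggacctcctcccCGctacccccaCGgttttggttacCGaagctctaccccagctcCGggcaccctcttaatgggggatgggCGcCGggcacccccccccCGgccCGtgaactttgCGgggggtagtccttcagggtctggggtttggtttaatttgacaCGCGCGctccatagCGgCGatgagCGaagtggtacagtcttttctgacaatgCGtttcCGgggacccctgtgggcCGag
Magoh, chr4:107879505-107879754: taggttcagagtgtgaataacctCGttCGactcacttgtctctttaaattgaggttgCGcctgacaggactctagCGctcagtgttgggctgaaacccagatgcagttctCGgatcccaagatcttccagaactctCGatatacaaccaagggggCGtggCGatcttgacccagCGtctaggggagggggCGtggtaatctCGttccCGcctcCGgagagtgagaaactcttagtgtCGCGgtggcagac
Czib, chr4:107889576-107889825: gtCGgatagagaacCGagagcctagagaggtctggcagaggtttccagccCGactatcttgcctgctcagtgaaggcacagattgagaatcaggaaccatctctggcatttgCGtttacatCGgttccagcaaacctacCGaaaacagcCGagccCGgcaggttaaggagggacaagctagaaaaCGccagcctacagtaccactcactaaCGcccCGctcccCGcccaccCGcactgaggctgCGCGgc
The Lrp8 sequence held 18 CpG and the Magoh and Czib sequences 15 each, against a median of 6 over the same stretch of 32851 promoters. Of the 12 genes, 10 had an entry in that table, with 13 starts.

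In wild-type testis the bin beside the deleted span stood out within the segment. Relative contact, the log2 of a pair's contacts over the mean of the right-side pairs at the same distance in the same library, removes both depth and distance. Of the 153 pairs at least 50 kb apart, the 5 with the highest wild-type contact all joined bin 1 to a bin inside Lrp8, namely bins 11, 7, 9, 12 and 10. The pair of bin 1 with bin 11, 100 kb apart, was first, with relative contacts of 1.06, 1.21 and 1.07 in the 3 wild-type libraries, 2.17-fold the mean of that distance. The pair with bin 7, which holds the first Lrp8 start, had 0.94, 1.10 and 0.77. The means of the other 3 were 0.87 for bin 9, 0.83 for bin 12 and 0.81 for bin 10. These ranks describe the wild-type map and were not tested.

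Part of this pattern moved with the contacts that each bin made with other chromosomes, taken as a measure of its coverage. Over the 22 bins, the wild-type relative contact of a bin and these contacts had r = 0.77 (22 bins of the same libraries, a description only); how often a bin was captured was not measured. After each count was divided by both bins' contacts with other chromosomes, the pair of bin 1 and bin 11 still ranked first (0.96 ± 0.04, SD, n = 3), and 7 of the 10 highest pairs had bin 1. The pair of bin 1 with bin 6, which lies outside Lrp8, went from 0.17 to 0.82. After correction it was above the pairs with bins 7 (0.71), 10 (0.61), 12 (0.55) and 9 (0.54) inside Lrp8. The pair of bin 1 with bin 16, eighth before, ranked 44th after this correction. Bin 1 lay below 0 with bins 17 to 21 after it, such as -0.32 with bin 19, which was 0.43 before.

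**Figure D1:**
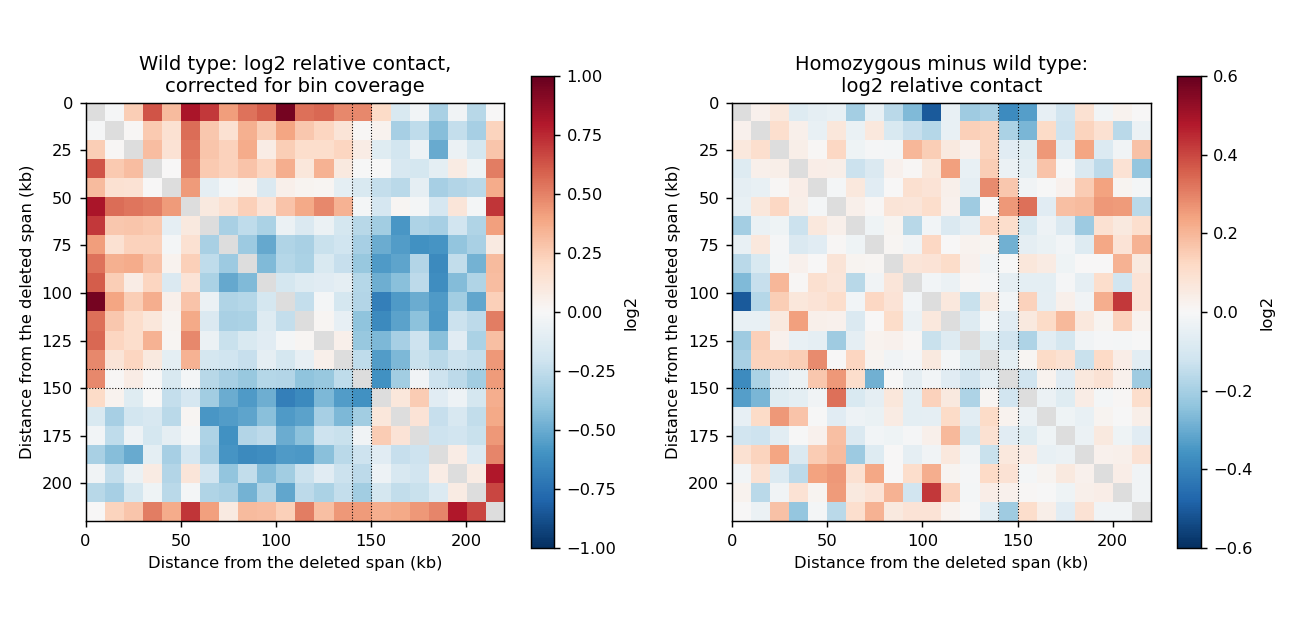
Relative contact of the pairs by distance of both bins from the deleted span (kb, both axes); colour is log2. The left map is the wild-type mean after correction for contacts with other chromosomes. Bin 1 is above 0 with bins 3 to 16, highest with bin 11 (0.96), and below 0 with bins 17 to 21. The right map is the homozygous minus the wild-type mean without that correction, lowest at the pair of bin 1 with bin 11 (-0.50). Dotted lines bound bin 15, and same-bin pairs are grey.

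A second feature of the wild-type map was a weak division near Magoh and Czib. The insulation score, the log2 mean contact across a junction of bins minus that within the 50 kb on either side, is lower where fewer contacts cross. It was lowest at the junction after 107890000, at -1.99, -2.08 and -1.99 in the 3 wild-type libraries, and next lowest at the junction after 107880000, at a mean of -2.00 ± 0.06 (SD, n = 3). The median of the 13 junctions that fit within the segment was -1.63. Of 179 junctions in the chromosome 2 core, 4 had a lower wild-type score than -2.02, the mean at 107890000, and so had 0 of 51 on the left side of the deletion. In the corrected map, pairs between bins 1-14 and bins 16-22 lay below the mean for their distance (-0.24 ± 0.01, n = 3), while pairs within bins 1-14 and within bins 16-22 lay above it (0.05 ± 0.02 and 0.15 ± 0.03). Without the correction, pairs between the blocks again lay below (-0.25 ± 0.03) and those within bins 1-14 above (0.14 ± 0.06), but those within bins 16-22 lay below (-0.11 ± 0.12). These blocks were drawn after the scores were seen.

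In homozygotes the mean score was lowest at the same junction (-1.98 there and at 107880000), although library 2 was lower at 107880000 (-2.04). Their scores at 107890000 were -1.93, -2.00 and -2.01, which overlap the wild-type scores, a difference of 0.04 (SE 0.05, limma adjusted p 0.521). None of the 13 junctions passed an adjusted p of 0.05 in limma, 0 had an unadjusted p under 0.05, and percent called over all 243 junctions was 0. The score was higher in homozygotes at 11 of the 13, against 96.3% of all junctions. Leaving out homozygous library 3 gave 2 calls, both higher, where 25.5% of all junctions were called. Contact between the 2 blocks in the corrected map was -0.20 ± 0.01 in homozygotes, above all wild-type libraries, with an exact permutation p of 0.1, the smallest that 3 against 3 libraries allow. Without the correction it was -0.23 ± 0.04 and overlapped wild type (exact permutation p 0.6), and the adjusted p over 6 such tests was 0.6.

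**Figure D2:**
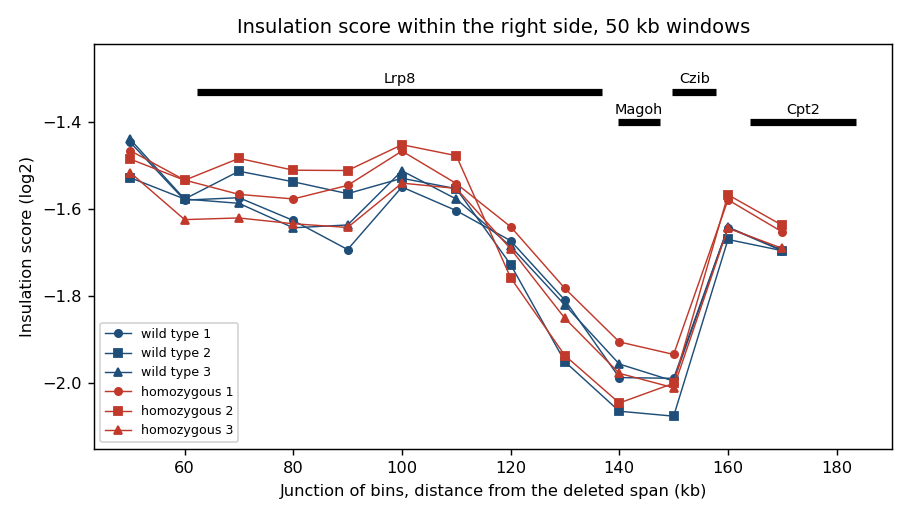
Insulation score (log2) at each junction within the segment, by distance from the deleted span (kb), for 3 wild-type (blue) and 3 homozygous (red) libraries; black bars mark genes. All 6 libraries dip between 140 and 150 kb, at the starts of Magoh and Czib, and the genotypes overlap there.

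The amount of contact within the segment did not differ between genotypes beyond the spread of the libraries. The pairs together held 57849, 100214 and 76553 contacts in wild-type libraries 1 to 3, and homozygous libraries 1 to 3 held 52113, 107577 and 73645. Per 1000 contacts of the chromosome 2 core (a captured stretch without the deletion), these are 64.7, 103 and 70.1 in wild type, against 61.5, 98.4 and 69.1 in homozygotes. The replicate 2 library was the highest in each genotype and the groups overlapped. The difference was -0.05 on the log2 scale, against an SD of 0.36 within wild type (exact permutation p 0.7, two-sided). That SD includes the high replicate 2 library, which both genotypes share, so this test could miss a smaller difference. Between same-numbered libraries the differences were -0.074, -0.065 and -0.022, though the labels do not say that numbers pair libraries. Without both replicate 2 libraries the difference of the means was again -0.05. Leaving out wild-type library 2 alone turned it to 0.15, and leaving out homozygous library 1 turned it to 0.09.

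The replicate 2 libraries stood apart before any comparison. They held 0.542 and 0.524 chromosome 4 core contacts per chromosome 2 core contact, against 0.338 to 0.376 in the other 4 libraries. Their contacts were also spread differently over the pairs: pairs whose nearer end lay in bins 6-10 took 30.7% and 30.6% of the contacts there, and 26.7% to 27.2% elsewhere. Libraries held 5669898 to 7794641 contacts in total. Wild-type libraries 1 and 3 differed over the pairs of the segment by no more than counting noise (chi-square test, p 0.0564), but over all 20430 tested pairs they differed (p 4.86e-22), so they were kept as separate samples.

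The segment was also compared with its mirror, the 22 bins on the left of the deletion, a ratio that does not use chromosome 2. The log2 ratio of right to left was 0.24, 0.09 and 0.25 in wild type, against 0.20, 0.04 and 0.20 in homozygotes. The groups overlapped, with a difference of -0.05 (larger SD 0.09, exact permutation p 0.5). Leaving out homozygous library 2 turned it to 0.0048. Between same-numbered libraries the differences were -0.046, -0.050 and -0.051.

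Contact fell with distance inside the segment. Pairs 10-20 kb apart took 60.3% to 61.7% of the contacts, and pairs 110-210 kb apart took 5.88% to 6.52%. The slope of log contact on log distance from 10 to 210 kb was -1.07, -1.12 and -1.09 in wild type, against -1.08, -1.16 and -1.11 in homozygotes, with overlapping groups (exact permutation p 0.6). On the left side the wild-type slope was -0.96, -1.01 and -0.97, above all 3 right-side values; this difference was not tested. In the chromosome 2 core it was -1.03 in wild type and -1.01 in homozygotes, with no overlap (exact permutation p 0.1, the smallest possible).

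Measured against chromosome 2 in the same library, the decay of the segment was slightly steeper in homozygotes at short range. From 10 to 100 kb, the slope minus that of chromosome 2 was -0.05, -0.02 and -0.03 in wild type, against -0.08, -0.06 and -0.07 in homozygotes. The groups did not overlap (exact permutation p 0.1; adjusted p 0.3 over the 12 slopes compared, 4 of which did not overlap). The slope of the segment itself over that range was -1.16 in both genotypes (exact permutation p 0.8), and that of chromosome 2 went from -1.13 to -1.10.

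By distance class, the chromosome 2-scaled change was -0.06 at 10-20 kb, -0.03 at 30-50 kb, -0.05 at 60-100 kb and -0.10 at 110-210 kb, each against an SD of at least 0.32 (exact permutation, adjusted p 0.7 for all 4). By position of the nearer end, it was -0.05 for bins 1-5, -0.04 for bins 6-10, -0.07 for bins 11-15 and -0.06 for bins 16-22 (adjusted p 0.7 for all 4). All 8 classes overlapped between genotypes, and all 8 turned positive when wild-type library 2 was left out.

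**Figure D3:**
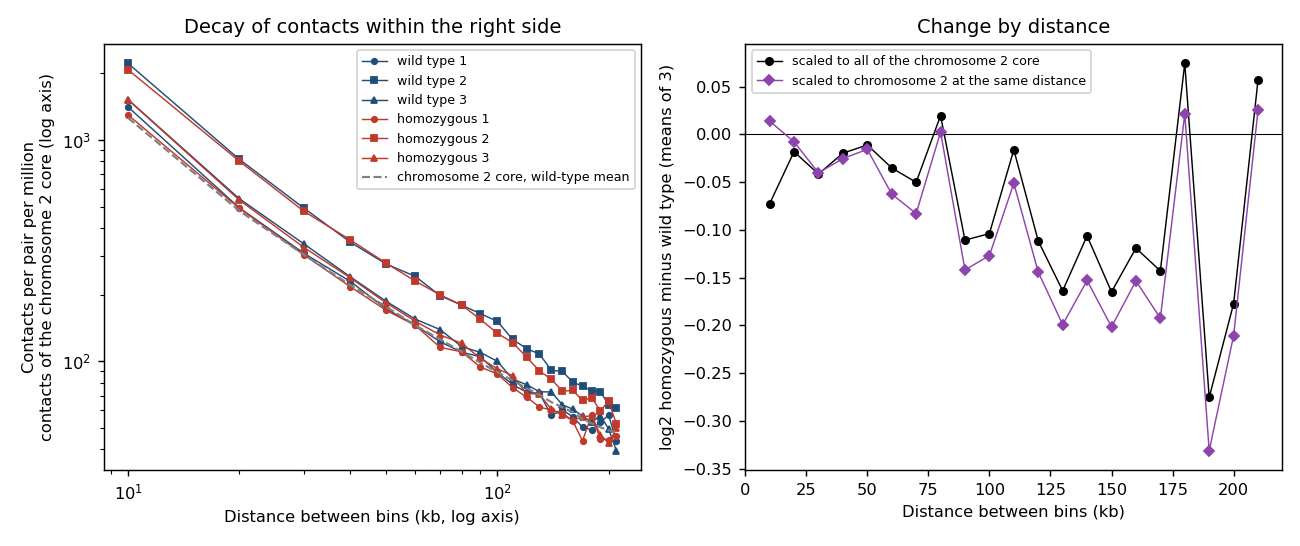
Left, contacts per pair per 1000000 chromosome 2 core contacts against distance (kb), both on log axes, for each library, with the chromosome 2 wild-type mean dashed; the replicate 2 libraries of both genotypes lie above the other 4. Right, homozygous minus wild-type log2 change at each distance, scaled to all of chromosome 2 or to its pairs at the same distance; points are differences of means of 3 and have no error bars.

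Among single pairs, none passed in the fit that does not pair libraries by number. In edgeR's quasi-likelihood test over 20430 pairs, scaled to chromosome 2, 0 pairs of the segment had an adjusted p under 0.05, where 0.00489% of all pairs did; DESeq2 also called 0. An unadjusted p under 0.05 was reached by 3 of them (1.30%), all lower in homozygotes, against 3.21% of all pairs and 0.901% of all pairs in that direction. The fitted change was negative for 148 of them (64.1%, median -0.04), while over all tested pairs 42.7% were negative (median 0.04). In simulated data, the changed pairs were drawn from all 20430 tested pairs. The test found 8 of 100 pairs changed by 0.5 on the log2 scale and 49 of 100 changed by 1. Changes of these sizes could thus be missed, and the rate for pairs of the segment alone was not measured.

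The 3 pairs with the smallest p all had bin 1 at one end. The first was the pair of bin 1 with bin 15, which holds the Czib starts and part of Magoh, whose start lies in bin 14. Per 1000000 chromosome 2 core contacts, this pair had 96.2, 124 and 102 contacts in wild-type libraries, against 69.6, 80.5 and 79.7 in homozygous ones. The highest homozygous value was below the lowest wild-type value (log2 change -0.48, SE 0.16, edgeR p 0.0101, adjusted p 0.999924). The pair of bin 1 with bin 16 had 91.7, 129 and 104 in wild type, against 67.3, 95.1 and 69.4 in homozygotes (-0.48, SE 0.19, p 0.0228, same adjusted p); there the groups overlapped.

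The third was the pair of bin 1 with bin 11, the highest of the wild-type map. Per 1000000 chromosome 2 core contacts it had 186, 351 and 210 contacts in wild-type libraries and 127, 229 and 133 in homozygous libraries, where homozygous library 2 lay above wild-type libraries 1 and 3 (-0.60, SE 0.26, p 0.0352, adjusted p 0.999924). Without both replicate 2 libraries, a setting added after seeing the data, it was the 1 pair of the segment called (-0.61, SE 0.13, edgeR adjusted p 0.0056), where 0.0783% of all pairs were; with an offset per distance of its own side as well, it was not called (-0.53, adjusted p 0.0734). On the relative scale it went from 1.12 ± 0.09 in wild type to 0.61 ± 0.14 in homozygotes (SD, n = 3 each), that is from 2.17-fold to 1.53-fold the mean of its distance, with no overlap (exact permutation p 0.1). The pair was picked for its wild-type contact and its p in these same libraries, so this comparison is not independent of that choice.

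Other pairs of bin 1 followed the same direction at middle distances. Of its 21 pairs, 18 had a negative fitted change (median -0.13), against 130 of the other 210 (median -0.03). All 9 pairs 90 to 170 kb away were lower, from -0.60 to -0.10, with a median of -0.33. Of the other 72 pairs at these distances, a window picked from the values, 46 were lower, with a median of -0.06. Relative contact did not overlap between genotypes for 21 pairs of the segment (9.09%), against 9.54% of all pairs within a side. It was lower in homozygotes for 9 of these, and 5 of the 9 were pairs of bin 1, with bins 11, 13, 14, 15 and 16. That is 23.8% of the bin 1 pairs and 1.90% of the other 210, where 4.95% of all pairs within a side were lower without overlap; none passed after adjustment over the segment's pairs (smallest adjusted p 1).

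Summed over partners, the band of bin 1 was lower in the middle of its range. For these sums the reference was the mean of the other bins' pairs at the same distance, with the bin's own pairs left out, so they run higher than the pair values above. The sums were not corrected for contacts with other chromosomes. For partners 60-100 kb away, the log2 of bin 1's contacts over this reference was 0.86, 1.06 and 0.87 in wild type, against 0.61, 0.83 and 0.57 in homozygotes. For partners 110-170 kb away, it was 0.50, 0.57 and 0.59 in wild type, against 0.30, 0.39 and 0.32 in homozygotes. In both classes all homozygous libraries lay below all wild-type libraries (differences of -0.26 and -0.21, exact permutation p 0.1 each, the smallest possible).

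At 10-50 kb the difference was 0.01, with overlapping groups (exact permutation p 0.8). At 180-210 kb the reference rests on at most 3 pairs a distance and no comparison is made on this scale. Scaled to chromosome 2, bin 1 changed by -0.04 at 10-50 kb and -0.05 at 180-210 kb. It changed by -0.28 at 60-100 kb and -0.29 at 110-170 kb. On this scale the groups overlapped in each class, as homozygous library 2 lay above wild-type library 1. The difference between the distance classes was not tested. Over 60-170 kb the band was 1.72-fold the mean of the other bins' pairs in wild type and 1.45-fold in homozygotes (log2 difference -0.24, exact permutation p 0.1). These distance classes were set with the values in view; 18 such sums were compared, 6 did not overlap, and the adjusted p was 0.3.

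The same sums over 60-170 kb were taken for neighbouring bins. For bin 2 the difference was -0.05, with overlap, and -0.12 scaled to chromosome 2. By class, bin 2 differed by -0.09 at 60-100 kb and -0.0047 at 110-170 kb, with overlap in both. Scaled to chromosome 2, these were -0.13 and -0.12. For bin 3 over 60-170 kb the difference was 0.09, without overlap (exact permutation p 0.1). Its values went from 0.44, 0.49 and 0.43 in wild type to 0.57, 0.55 and 0.51 in homozygotes. That reference holds the pairs of bin 1, and scaled to chromosome 2 bin 3 changed by 0.00052. For the bin that borders the deletion on the left it was -0.08, with overlap, and 0.00029 scaled to chromosome 2. On that scale bin 1 changed by -0.28, with overlapping groups. The difference between bin 1 and these bins was not tested. The mean contacts of bin 1 with other chromosomes were higher in homozygotes by 0.13, with overlapping groups (exact permutation p 0.5). The median over the 22 bins was 0.065 (-0.01 to 0.17). Only bin 3 had a larger difference, 0.17, also with overlap (exact permutation p 0.3).

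**Figure D4:**
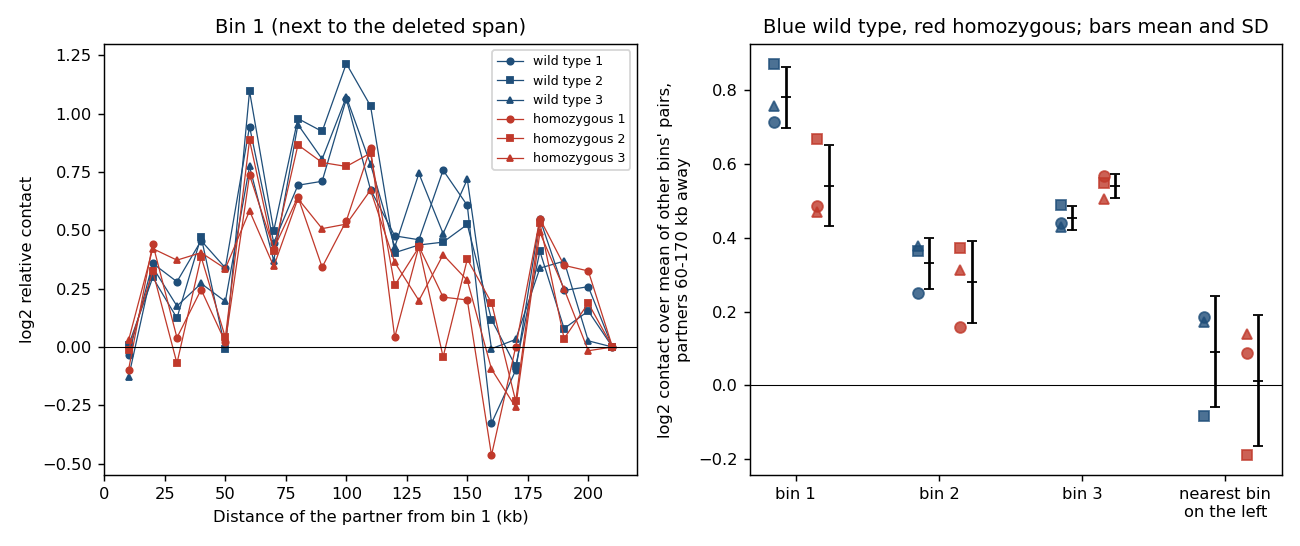
Left, log2 relative contact of bin 1 with each partner by distance (kb) in the 6 libraries. Between 60 and 150 kb the homozygous mean is below the wild-type mean for each partner. The genotypes do not overlap there for bins 11, 13, 14, 15 and 16, and overlap for the other partners. Right, log2 of the summed contacts over the mean of the other bins' pairs, for partners 60-170 kb away of bins 1, 2 and 3 and the nearest bin on the left, with mean and SD of 3 libraries; of the 4 bins drawn, bin 1 separates with homozygotes lower and bin 3 with homozygotes higher.

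Whole bins showed no called change. Summing each bin's contacts with the other bins of the segment, edgeR called 0 of 22 (0 with an unadjusted p under 0.05, and 0 by DESeq2), and percent called over all 270 bins was 0. All 22 fitted values were negative, from -0.12 to -0.0019, against 71.9% of all bins; each contact enters 2 bins, so these are not independent. Bin 1 had the lowest, -0.12 (SE 0.27, edgeR adjusted p 0.999), bin 2 had -0.04 and bin 3 -0.0019. The signs of these 3 values changed with the scaling or with single libraries left out.

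The shares of the 22 bins' contacts that went to each destination were read from the same libraries. Contacts within the segment were 18.0%, 20.2% and 19.0% of all contacts of the 22 bins in wild type, against 16.9%, 19.2% and 17.9% in homozygotes, with overlap (exact permutation p 0.3). Contacts with the deleted span went from 2.63% ± 0.11 to 0.889% ± 0.010 (SD, n = 3), which checks the labels. Contacts with the captured core on the left went from 12.4% ± 0.60 to 14.7% ± 0.94. Both shares separated the genotypes (exact permutation p 0.1 each, adjusted p 0.25 over 5 shares). The deletion shortens the distance between the sides in the homozygotes, and its part in the left share was not tested. Mean left contacts were higher for all 22 bins, most for bin 1 (0.54) and least for bin 17 (0.096), and 0 of the 22 separated the groups.

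The authors' deposited table of genes in cis, which regresses expression on genotype, lists 4 genes of this segment. In the authors' deposited table, Lrp8 has a slope of 1.25 (FDR 0.991), 4933424M12Rik 0.109 (FDR 0.991), Lrp8os3 -0.00912 (FDR 0.991) and Gm12907 a p of 1. None of the 4 passes an FDR of 0.05 there.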

How the data were processed

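Contact counts were deposited by the authors as whole numbers for pairs of 10 kb bins, 1 matrix per library, on mm10 per the submitters' processing notes; no normalization is visible in them. The Arima kit and SureSelect capture were used, per the labels' protocols. The aligner and read filters are not given in the sources used here. The deposited table of cis genes holds the authors' regression statistic and slope (a score) and p-values.

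Same-bin pairs were left out. The segment is chr4:107740001-107960000, with 231 pairs of different bins; the deleted span is chr4:107710001-107740000, the chromosome 2 core chr2:115200001-117080000, and the mirror chr4:107490001-107710000. Library size was the total of chromosome 2 core contacts. Pairs averaging 5 or more contacts went into edgeR 4.0.16 (quasi-likelihood, no covariate), insulation scores into limma 3.58.1 (trend), and sums into two-sided exact permutation tests over the 20 arrangements of libraries, with Benjamini-Hochberg adjustment throughout. DESeq2 1.42.0, TMM, other scalings, filters, windows, bin sizes, a replicate block and single libraries left out were alternatives. Decay slopes, correction by contacts with other chromosomes, blocks, bands and contact shares were computed after values had been seen. Named pairs were the 3 with the smallest p (none passed) and the 5 highest wild-type pairs at least 50 kb apart; named bins were the 3 next to the deletion and the lowest insulation score. The segment, lists and tests were chosen with earlier results of these data known. The tests were tried on simulated data.

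Depth limits precision: a pair's median was 148 contacts per library. Reads are not independent molecules and no interval for counting error is given.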

Additional observations from a re-analysis of the deposited data

How the results depend on the processing

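Calls were most sensitive to the replicate block, a fit that pairs same-numbered libraries. The labels do not say that a number marks a shared animal or day. Over all tested pairs, deviations of same-numbered libraries correlated at 0.159, 0.310 and 0.054. Replicate 2 libraries correlated at -0.221 to -0.113 with libraries of the other genotype and another number. Libraries 1 and 3 of different genotypes correlated at 0.075 and 0.091. Over the pairs of the segment alone, same-numbered libraries correlated at 0.230, 0.560 and 0.188, and wild-type library 1 correlated best with homozygous library 3 (0.303). The replicate 2 libraries thus went together, and these values do not decide whether the numbers mark pairs. The main fit did not pair libraries, a choice settled after the calls of both fits had been seen. With the replicate block, edgeR called 4 pairs of the segment, all lower and all with bin 1 (partners 10, 11, 15 and 16), where 0.357% of all pairs were called, and 6 of 22 bins, where 11.9% of all bins were. With the block and an offset per distance, it called 5 pairs and 2 bins. In settings added after seeing the data, the block called 1 pair scaled to the segment, 1 without both replicate 1 libraries, 1 without both replicate 2 libraries, 2 pairs and 6 bins without both replicate 3 libraries, and 5 pairs at 20 kb. The block called 0 junctions. For the sums its value equals the main value by construction; the differences between same-numbered libraries were all negative for the total (-0.074, -0.065 and -0.022) and for right over left (-0.046, -0.050 and -0.051), with an exact sign-flip p of 0.25, the smallest possible. Bin 1 with bin 11 had an adjusted p of 0.0056 without both replicate 2 libraries and no block, and 0.0734 (change -0.53) with an offset per distance of its own side as well; with that offset and all 6 libraries it had an adjusted p of 1 and a change of -0.49. In all, 22 settings beside the main one were run for pairs, 18 for bins and 11 for insulation, of which 8, 5 and 2 were added after seeing the data.

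Signs of the sums were not stable, and the replicate 2 libraries were the highest in both genotypes. With 1 library left out, the total ranged from -0.25 to 0.15, pairs 10-20 kb apart from -0.25 to 0.15, 30-50 kb from -0.24 to 0.17, 60-100 kb from -0.26 to 0.17, 110-210 kb from -0.26 to 0.083, bins 1-5 from -0.24 to 0.15, bins 6-10 from -0.30 to 0.23, bins 11-15 from -0.25 to 0.10, bins 16-22 from -0.20 to 0.075, and right over left from -0.10 to 0.0048. Leaving out wild-type library 2 or homozygous library 1 turned the total and all 8 classes positive. Scaled to chromosome 2 at the same distance, 10-20 kb became 0.0073. As shares of the segment's contacts, 30-50 kb became 0.026, 60-100 kb 0.0045, bins 1-5 0.0044 and bins 6-10 0.014. Called junctions ranged from 0 to 2 with 1 library left out, and called pairs and bins stayed at 0.

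Among named bins, bin 1 ranged from -0.35 to 0.13 with 1 library left out (0.13 without wild-type library 2, 0.022 without homozygous library 1). Bin 2 ranged from -0.28 to 0.21 (0.21, 0.11 and 0.015 without wild-type library 2, homozygous library 1 and homozygous library 3), and was 0.0146 scaled to the segment and 0.0151 with the block as well. Bin 3 ranged from -0.20 to 0.21 (0.21, 0.11 and 0.061 without the same libraries). It was 0.0181 with TMM, 0.0156 with DESeq2, 0.0317 with the distance offset, 0.0559 scaled to the segment and 0.0163 without both replicate 2 libraries. With the replicate block it was 0.00041, and then 0.034 with the distance offset, 0.054 scaled to the segment and 0.0162 without both replicate 2 libraries. None of these signs belonged to a called bin; the cause was not tested. The 3 named pairs were lower in homozygotes in all 20 settings run for them beside the main one. They were picked by their p in these same libraries, so the shared sign is not independent support.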
